A study of Mus musculus with 19 samples.

Results

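The 6 Iroquois homeobox genes of the mouse, Irx1 to Irx6, were followed in RNA-seq libraries of ipsilaterally and contralaterally projecting retinal ganglion cells (iRGCs and cRGCs). Members were all gene identifiers of the deposited count tables that the GENCODE annotation of GRCm38 assigns to Irx1 to Irx6, which are 6 of 47069 identifiers. Each of them passed the filter on low counts and is among the 15941 genes tested. The study asked which transcripts differ between RGCs whose axons avoid the midline at the optic chiasm and those whose axons cross it. Cells came from E16.5 retinas of C57/DBA F1 embryos of both sexes, pooled, whose genotype the labels give as WT and which carried a Cre-dependent CAG-[Stop]-Sun1-GFP cassette at the Rosa26 locus. This reporter puts GFP on the nuclear envelope of cells in which Cre was active and of their descendants. For iRGCs the driver was Slc6a4-Cre (the ET33 Sert-Cre line), and the labels mention no dissection of its retinas. For cRGCs it was Pou4f2-Cre (Brn3b), active in most RGCs, and the ventrotemporal (VT) retina, the home of iRGCs, was cut away first. GFP-positive cells were sorted, and polyA RNA was sequenced in 3 biological replicates per population. The paper adds that iRGCs are born later and so are on average younger than cRGCs at E16.5. Driver line, dissection and this age differ together with the projection of the cells, so these cannot be told apart. The number of embryos per RNA-seq library is not given in the sources used here, and p-values below measure the spread among these 6 libraries. The 13 ATAC-seq samples of the series were not analysed here.

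Iroquois genes encode transcription factors of the TALE class of homeodomain proteins, which carry an extended loop in the homeodomain, together with a short conserved motif, the Iro box. In mammals they lie in a pair of clusters that arose by duplication and share long-range enhancers. In the vertebrate retina they are known from ganglion cells, and Irx5 and Irx6 also from cone bipolar cells, where Irx5 is needed for some OFF types and Irx6 for one of them. In the chick retina Irx4 acts on Slit1 and on the paths of ganglion cell axons.

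On chromosome 13 of GRCm38 the first cluster spans 1311.69 kb (71957921 to 73269608). It holds Irx1 (ENSMUSG00000060969, 71957921 to 71963723, minus strand), Irx2 (ENSMUSG00000001504, 72628820 to 72634198, plus strand) and Irx4 (ENSMUSG00000021604, 73260479 to 73269608, plus strand). The second cluster spans 882.432 kb on chromosome 8 (91798525 to 92680956). It holds Irx3 (ENSMUSG00000031734, 91798525 to 91802067, minus strand), Irx5 (ENSMUSG00000031737, 92357625 to 92376286, plus strand) and Irx6 (ENSMUSG00000031738, 92674288 to 92680956, plus strand). Reads were counted on exons, which add up to between 2607 bp for Irx4 and 3370 bp for Irx6. Irx3 shares 124 bp (4.49%) of its exonic bases with the antisense gene Irx3os, and since the sources used here do not say whether counting used the strand, reads in that stretch cannot be assigned to one of them. The other 5 members share no exonic base with another gene.

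The set of RefSeq promoters used here (GRCm38.p6) holds 3 of the 6 members, Irx2, Irx3 and Irx4. Those of Irx2 and Irx4 are shown because these are the members with the highest levels in both populations, and because the Irx2 window is nearly the whole gap between Irx2 and Gm20554, a noncoding gene transcribed in the other direction that is described with the neighbours. Each run is the 250 bases before the RefSeq start, 5′ to 3′ on the plus strand, with CpG dinucleotides in capitals. Irx2 lies at chr13:72628570-72628819 and Irx4 at chr13:73260247-73260496.
Irx2: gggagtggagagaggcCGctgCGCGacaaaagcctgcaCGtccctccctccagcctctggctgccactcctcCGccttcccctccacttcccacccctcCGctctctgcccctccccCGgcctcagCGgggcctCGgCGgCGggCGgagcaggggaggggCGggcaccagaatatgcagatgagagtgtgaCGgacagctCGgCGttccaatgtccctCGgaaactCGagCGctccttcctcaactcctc
Irx4: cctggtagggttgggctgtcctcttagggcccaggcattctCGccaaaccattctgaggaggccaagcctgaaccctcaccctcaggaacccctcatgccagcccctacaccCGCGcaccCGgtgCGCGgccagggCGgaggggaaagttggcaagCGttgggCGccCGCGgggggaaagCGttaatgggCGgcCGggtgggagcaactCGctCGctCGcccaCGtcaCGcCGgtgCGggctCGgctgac
The Irx2 window holds 19 CpG dinucleotides and 68.4% G and C, and the Irx4 window 22 and 68.8%. The median of the 32851 RefSeq promoters was 6 CpG dinucleotides and 52.4%, and 82.1% and 86.7% of them hold no more CpG dinucleotides than Irx2 and Irx4. The Irx3 window, with 13 CpG dinucleotides and 56% G and C, lies nearer to the middle, with 70.6% of promoters at or below its CpG count. Of 5 motifs searched on both strands, 0 occurred in the 3 windows. These were ACANNTGT, a palindrome bound by Iroquois proteins (in 6.31% of all promoter windows of this length), TAATTA, the homeodomain core (4.84%), CAGCTG, an E-box (in 4271 of the 32851 windows), CAGCAG, a core of Zic sites (25.4%), and ATTTGCAT, the octamer of POU factors (1.60%).

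Before the family is described, the populations themselves were checked. Depth was alike, with 28193178, 29759011 and 30874653 reads counted on genes in iRGC replicates 1, 2 and 3 and 28274471, 30454674 and 33638083 in the cRGC replicates. Slc6a4, the serotonin transporter gene whose regulatory region drives Cre in iRGCs, had levels of 2.06, 33.4 and 116 CPM (counts scaled to the library size with edgeR's TMM factors) in iRGC replicates 1, 2 and 3, and 48.1, 35.4 and 30.5 CPM in the cRGC replicates. The populations thus overlapped for Slc6a4, and the difference did not pass the test (log2 fold change 0.41, SE 0.929, edgeR, Benjamini-Hochberg adjusted p = 0.768). Replicate 1 of the iRGCs was below all others, and iRGC replicate 2 was below cRGC replicates 1 and 2. Only iRGC replicate 3 was above all cRGC libraries. Zic2, the transcription factor that marks iRGCs, was above 133 CPM in each iRGC library and below 65.7 CPM in each cRGC library. Because iRGC replicate 1 was the lowest of all libraries in the gene that defines its label, though not in Zic2, the fold changes of the members and the count of those called are also given without it. These checks were chosen after the values were seen.

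All 6 Irx genes had lower levels in iRGCs than in cRGCs, between 3.29-fold for Irx1 and 5.17-fold for Irx4. At an adjusted p-value under 0.1 (edgeR's quasi-likelihood test, two-sided, Benjamini-Hochberg adjustment over all tested genes), 6 of 6 members were called lower, against 23.1% of the 15941 tested genes. None was called higher, against 23.3% of the tested genes. The count of 0 higher was also that at an unadjusted p-value under 0.05 and that of DESeq2 and limma voom. In 5 members, all but Irx1, the 3 iRGC libraries lay below the 3 cRGC libraries, which held for 28.2% of tested genes. The median log2 fold change over all tested genes was 0.00 under this scaling. In sorted pools of this kind, fewer cells that express a gene and less RNA of it per cell cannot be told apart. Without iRGC replicate 1, 6 of 6 were still called lower.

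**Figure D1:**
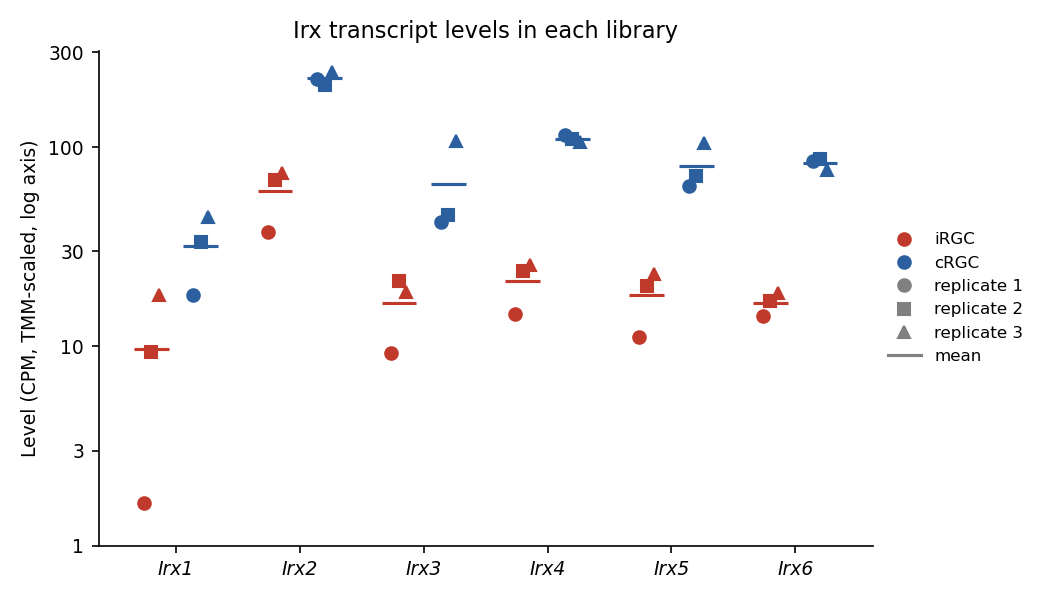
Level of each Irx gene (CPM with TMM scaling, log axis) in the 3 iRGC libraries (red) and the 3 cRGC libraries (blue), with the replicate number as the symbol and the mean of 3 libraries as a line. The iRGC points lie below the cRGC points for each gene except Irx1, where iRGC replicate 3 and cRGC replicate 1 meet at 18.2 CPM, and iRGC replicate 1 is the lowest point of every gene.

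Irx2 was the most abundant member. Its level was 37.7, 68.3 and 73.9 CPM in iRGC replicates 1, 2 and 3 and 220.2, 206 and 238 CPM in the cRGC replicates. The highest iRGC library was therefore far under the lowest cRGC library, and the cRGC libraries were close together. The means were 60.0 ± 19.5 CPM (SD, n = 3) and 221 ± 15.9 CPM, which gave a log2 difference of -1.88 (SE 0.228, edgeR, Benjamini-Hochberg adjusted p = 3.81e-04). Without iRGC replicate 1 it was -1.64.

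Irx4, a gene known from ventricular heart muscle and the retina, showed the largest fold change of the family with all 6 libraries. It had levels of 14.5, 23.9 and 25.7 CPM in the iRGC replicates and 115, 110.4 and 106 CPM in the cRGC replicates. The cRGC libraries differed by no more than 1.09-fold from each other, and none came near an iRGC library. Means of 21.4 ± 6.004 CPM and 110.5 ± 4.82 CPM (SD, n = 3) gave a log2 fold change of -2.37 (SE 0.207, edgeR, Benjamini-Hochberg adjusted p = 2.05e-04), and -2.16 without iRGC replicate 1. Irx6 (-2.23) changed more without that library, and Irx1 (-2.55, against -2.53 for Irx4) did so without iRGC replicate 3.

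Irx1, at the far end of the chromosome 13 cluster, was the least abundant member and the most variable one in iRGCs. Its level was 1.64, 9.37 and 18.2 CPM in iRGC replicates 1, 2 and 3, from 51, 303 and 577 reads, and 18.2, 33.3 and 44.6 CPM in the cRGC replicates. These libraries overlapped, since iRGC replicate 3 (18.194 CPM) was just above cRGC replicate 1 (18.184 CPM). The log2 fold change was -1.72 (SE 0.679, edgeR, Benjamini-Hochberg adjusted p = 0.0754), between means of 9.73 ± 8.28 CPM and 32.0 ± 13.3 CPM (SD, n = 3). This call was lost without iRGC replicate 2 (log2 fold change -1.69, edgeR, Benjamini-Hochberg adjusted p = 0.171), without cRGC replicate 2 (-1.70, 0.128) or 3 (-1.42, 0.202), and with DESeq2 (-1.73, 0.125). Without iRGC replicate 1 it held at -1.22 (edgeR, Benjamini-Hochberg adjusted p = 0.0564). Without iRGC replicate 3 the log2 fold change was -2.55 (edgeR, Benjamini-Hochberg adjusted p = 0.0182).

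Of the chromosome 8 genes, Irx6, a regulator of cone bipolar cell subtype, had the smallest spread. Its level was 14.2, 17.0 and 18.5 CPM in the iRGC replicates and 85.0, 87.2 and 77.1 CPM in the cRGC replicates. Within each population the libraries were close, and the populations were far apart. The log2 fold change between 16.6 ± 2.16 CPM and 83.1 ± 5.32 CPM (SD, n = 3) was -2.33 (SE 0.144, edgeR, Benjamini-Hochberg adjusted p = 2.01e-04), and -2.23 without iRGC replicate 1.

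Irx5, which is needed for some OFF cone bipolar cells and in the heart for the gradient of a potassium current, measured 11.1, 20.2 and 23.1 CPM in iRGC replicates 1, 2 and 3 and 63.8, 71.7 and 106 CPM in the cRGC replicates. The populations did not overlap, and cRGC replicate 3 was the highest library. The log2 fold change between 18.1 ± 6.27 CPM and 80.4 ± 22.2 CPM (SD, n = 3) was -2.15 (SE 0.291, edgeR, Benjamini-Hochberg adjusted p = 5.93e-04), and -1.89 without iRGC replicate 1.

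Irx3, known for its roles in the heart's conduction system and in fat tissue, measured 9.30, 21.2 and 18.9 CPM in iRGC replicates 1, 2 and 3 and 42.2, 45.8 and 108 CPM in the cRGC replicates. Replicate 3 of the cRGCs was again the highest, at 2.55 times the lowest cRGC library, and the populations did not overlap. Means of 16.5 ± 6.32 CPM and 65.2 ± 36.8 CPM (SD, n = 3) gave a log2 fold change of -1.99 (SE 0.415, edgeR, Benjamini-Hochberg adjusted p = 0.00492). It was -1.70 without iRGC replicate 1 and -1.42 without cRGC replicate 3, and remained past the threshold in both cases.

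The tested genes ranked by log2 fold change place Irx4 292nd from the most negative, Irx6 328th, Irx5 472nd, Irx3 663rd, Irx2 777th and Irx1 1032nd. Thus 1.83% of tested genes had a value as low as that of Irx4 and 6.47% one as low as that of Irx1. With an absolute log2 fold change above 1 required as well, 6 of 6 members were still called lower, against 11% of tested genes.

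**Figure D2:**
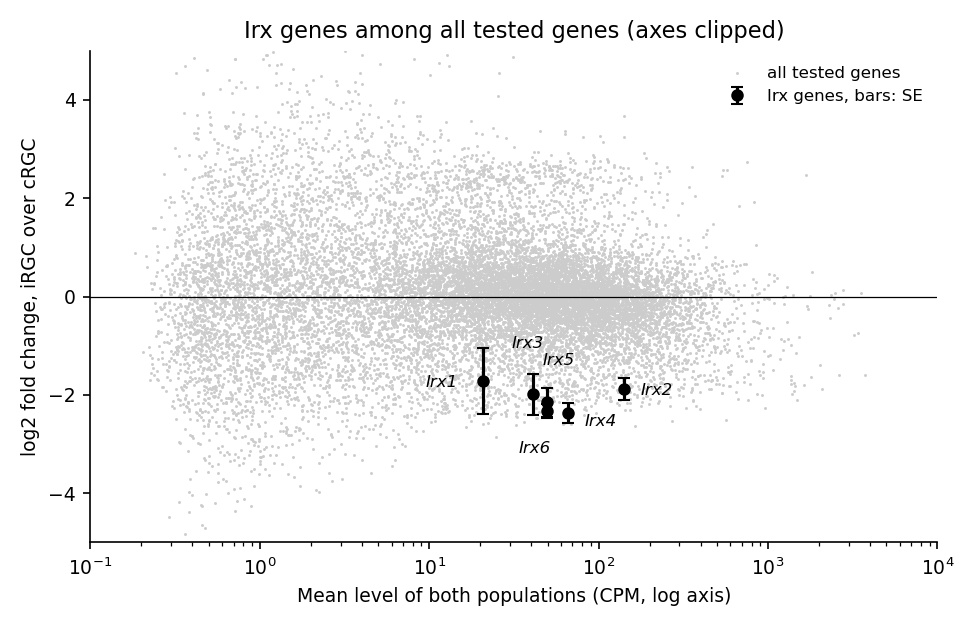
Log2 fold change of iRGCs over cRGCs against the mean level of both populations (CPM, log axis) for all tested genes (grey) and the Irx genes (black, bars are SE). Irx1 to Irx6 lie between -2.37 and -1.72, near the lower edge of the genes of similar level.

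Levels of different genes were compared per kilobase of exon. In iRGCs the order was Irx2 (18.3 ± 5.94 CPM per kilobase of exon, SD, n = 3), Irx4 (8.20 ± 2.30), Irx3 (5.96 ± 2.29), Irx5 (5.80 ± 2.00), Irx6 (4.91 ± 0.641) and Irx1 (3.71 ± 3.16). Only the step from Irx2 to Irx4 was larger than the ranges of the libraries, and all later neighbours in the order overlapped. In cRGCs the order was Irx2 (67.5 ± 4.85), Irx4 (42.4 ± 1.85), Irx5 (25.7 ± 7.11), Irx6 (24.7 ± 1.58), Irx3 (23.6 ± 13.3) and Irx1 (12.2 ± 5.06). There the steps from Irx2 to Irx4 and from Irx4 to Irx5 cleared the ranges, while the 3 chromosome 8 genes overlapped each other and Irx3 overlapped Irx1. Among the tested genes, Irx2 stood at the 96.8th percentile of level per kilobase in cRGCs and at the 82.2nd in iRGCs, and Irx1 at the 71.6th and the 41.5th.

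The family as a whole summed to 88.4, 160 and 178 CPM in iRGC replicates 1, 2 and 3 and to 545, 555 and 679 CPM in the cRGC replicates. The mean sum was 4.17-fold higher in cRGCs (593 ± 74.7 CPM against 142 ± 47.5 CPM, SD, n = 3), and the populations did not overlap. Within this sum the mean shares of the members differed between the populations by at most 4.71 percentage points. Irx2 took 42.6%, 42.7% and 41.5% of the summed CPM in the iRGC replicates and 40.4%, 37.2% and 35.1% in the cRGC replicates, with no overlap, while the shares of the other 5 members overlapped between the populations. The share of Irx4 was 15.3% ± 1.03 in iRGCs against 18.9% ± 2.94 in cRGCs (SD, n = 3). The chromosome 8 cluster contributed 36.5% ± 2.61 of the summed CPM in iRGCs and 38.3% ± 4.04 in cRGCs, with overlapping libraries. That difference of -1.75 percentage points was -3.05 without iRGC replicate 1 and 0.52 without cRGC replicate 3, in which the chromosome 8 share was the highest at 42.8%.

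**Figure D3:**
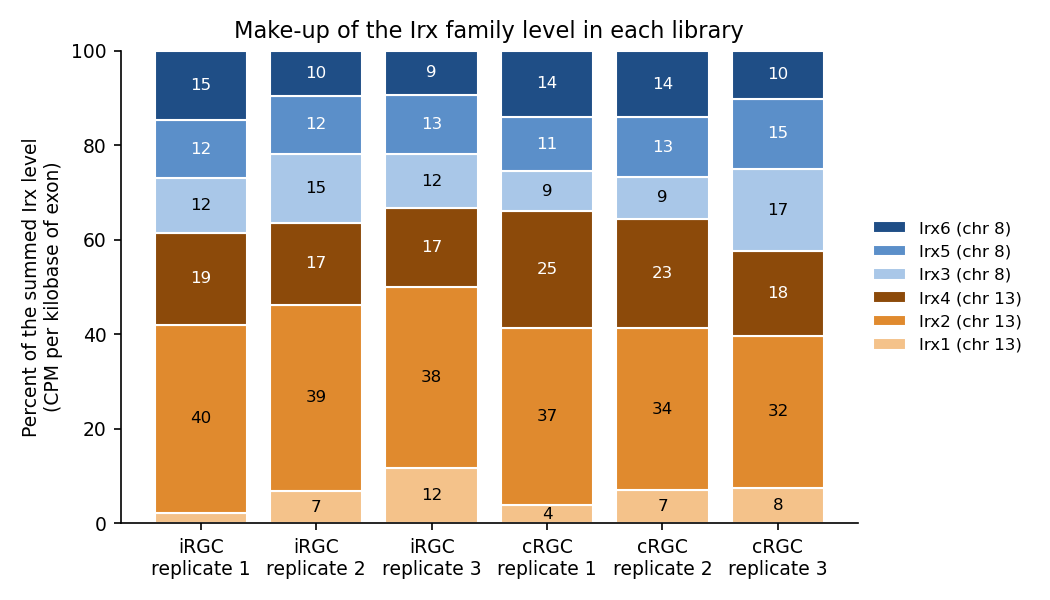
Percent of the summed Irx level (CPM per kilobase of exon) taken by each gene in each library, with the chromosome 13 genes in brown and the chromosome 8 genes in blue. Irx2 takes the largest share in every library, from 32.1% to 39.9%, and Irx1 varies most, from 2.17% to 11.8%.

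The 15 ratios between members of the same library were compared as well. Only the ratio of Irx2 to Irx4 did not overlap between the populations, with log2 ratios of CPM of 1.38, 1.51 and 1.53 in the iRGC replicates and 0.93, 0.90 and 1.17 in the cRGC replicates. The difference was 0.47 (exact permutation test, two-sided, p = 0.1, the smallest that 3 libraries against 3 allow), and 1 after Benjamini-Hochberg adjustment over the 15 pairs. No pair could therefore pass at an adjusted p-value under 0.1, and overlap does not show that a ratio was unchanged. The ratio of Irx3 to Irx4 differed by 0.48 with overlapping libraries.

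Spread between libraries set the members apart. In iRGCs the coefficient of variation of the CPM level was 85.1% for Irx1, 38.4% for Irx3, 34.6% for Irx5, 32.5% for Irx2, 28.1% for Irx4 and 13.1% for Irx6, beside a median of 13.2% over tested genes of at least 10 CPM. All members were lowest in iRGC replicate 1. Without that library, an alternative chosen after seeing the data, the coefficient of variation over the remaining 2 libraries was 45.3% for Irx1 and between 4.97% (Irx4) and 9.57% (Irx5) for the other 5 members, beside a median of 9.76%. In cRGCs Irx4 (4.37%), Irx6 (6.41%) and Irx2 (7.18%) varied less than the median gene (9.10%), whereas Irx3 (56.5%), Irx1 (41.4%) and Irx5 (27.7%) varied more and were highest in replicate 3. Of the regional genes, 5 of 7 dorsal, 3 of 6 ventral and 3 of 7 nasal and temporal ones also had their highest cRGC level in replicate 3, as 32.7% of all tested genes did, and their part in these values was not tested.

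Over the 6 libraries, Pearson correlations of log2 CPM between members ran from 0.759 for Irx1 and Irx6 to 0.992 for Irx2 and Irx4. These describe points that share the difference between the populations. The same holds for the genes whose pattern was most like each member, which reached correlations of 0.995 to 1.00. For Irx2 these were Fig4, Nicn1 and D630045J12Rik, for Irx4 Orai2, Amer3 and Hsdl1, and for Irx6 they included Gm26782 and Lrfn1. For Irx3 they were D930028M14Rik, Grm2 and Arhgdia, for Irx5 Cables2, Bop1 and Kcnmb4, and for Irx1 Psma7, 1110032A03Rik and Sh3bp5l. Their log2 fold changes included -2.27 for Grm2 and -0.30 for Psma7.

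Genes of differentiated RGCs were lower in iRGCs by about as much as the Irx genes. From a list of 13 such genes, among them cytoskeletal, vesicular transporter and RNA-binding genes, 12 were called lower and 0 higher (edgeR, Benjamini-Hochberg adjusted p-value under 0.1), with a median log2 fold change of -1.94. The exception was Thy1 (-2.06, SE 0.947, edgeR, Benjamini-Hochberg adjusted p = 0.121). Slc17a6, the glutamate transporter of RGC terminals, had a log2 fold change of -2.07, the RGC marker Rbpms one of -1.997, and the neurofilament gene Nefl one of -1.99. The summed level was 3398, 4842 and 7086 CPM in iRGC replicates 1, 2 and 3 and 18137, 16529 and 20703 CPM in the cRGC replicates, with the neurofilament gene Ina the most abundant. As with the Irx genes, iRGC replicate 1 was the lowest library. In this and the following lists, genes said to lead are those with the largest change among called genes with a mean of at least 5 CPM.

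Set against these genes within each library, the Irx family differed little between the populations. The log2 ratio of summed Irx CPM to the summed CPM of the 13 genes was -5.26, -4.92 and -5.31 in the iRGC replicates and -5.06, -4.90 and -4.93 in the cRGC replicates. The populations overlapped, with means of -5.17 ± 0.214 and -4.96 ± 0.0843 (SD, n = 3) and a difference of -0.20. The member whose ratio differed most between the populations was Irx4, with log2 ratios of -7.87, -7.66 and -8.11 in iRGCs and -7.30, -7.23 and -7.61 in cRGCs. Its populations did not overlap, and the difference was -0.50 (exact permutation test, two-sided, p = 0.1, the smallest possible). The other 5 overlapped, with differences from -0.42 for Irx6 to -0.02 for Irx3.

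A fit of all tested genes with the libraries scaled to these 13 genes in place of TMM, chosen after seeing the data, called 0 of 6 members lower, against 0.22% of tested genes called lower and 78.8% called higher. Under this scaling the median of all tested genes moved to 1.95, so the members stayed below most genes. The 13 genes had a median log2 fold change of -1.94 with TMM, so using them as the reference raises other genes by about as much. Members with TMM values from -2.37 to -1.72 were therefore bound to come near 0. The count of 0 restates that likeness and is not a separate test of it. The log2 fold changes were -0.50 for Irx4 (SE 0.345), -0.41 for Irx6 (SE 0.357), -0.28 for Irx5 (SE 0.355), -0.07 for Irx3 (SE 0.377), -0.05 for Irx1 (SE 0.449) and -0.02 for Irx2 (SE 0.330). None passed the threshold, with the lowest adjusted p-value at 0.187 for Irx4 (edgeR, Benjamini-Hochberg). With these SEs, differences of this size were not detectable.

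**Figure D4:**
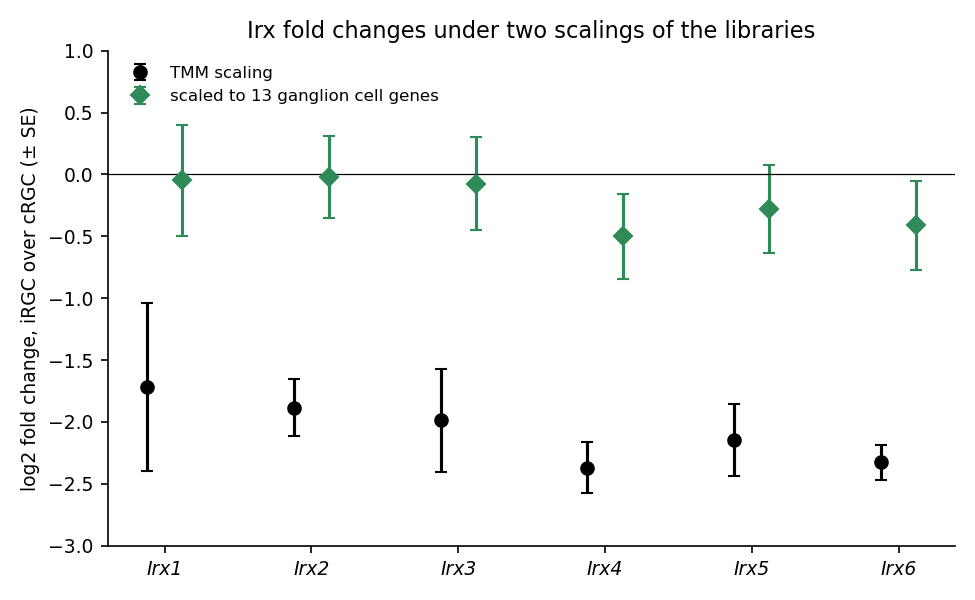
Log2 fold change of iRGCs over cRGCs (± SE, edgeR) of each Irx gene with TMM scaling (black circles) and with the libraries scaled to the 13 genes of differentiated ganglion cells (green diamonds). Values between -2.37 and -1.72 with TMM lie between -0.50 and -0.02 when the ganglion cell genes are the reference.

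Markers of retinal progenitors moved the other way. All 14 genes of retinal progenitors were called higher in iRGCs (edgeR, Benjamini-Hochberg adjusted p-value under 0.1, median log2 fold change 2.43), with Notch1 at 2.64, Lhx2 at 2.63 and Sox2 at 2.62. Their summed level, led by the cyclin gene Ccnd1, was 8420, 6892 and 6801 CPM in iRGC replicates 1, 2 and 3 and 861, 2073 and 1247 CPM in the cRGC replicates. Replicate 1 of the iRGCs thus had the lowest Irx sum and the highest progenitor sum. The paper reports Lhx2 and Sox2 among the transcription factors expressed in iRGCs. For these genes, RNA of iRGCs and RNA of progenitors cannot be told apart here. The part of progenitors in the Irx difference was not tested.

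Of 11 amacrine and horizontal cell genes, 7 were higher and 0 lower in iRGCs (median log2 fold change 1.18, summed CPM 564, 533 and 587 against 363, 395 and 490). The most abundant, Onecut2, was not called, and Tfap2c (2.47), Ptf1a (2.38) and Slc6a9 (1.66) led. Of 7 tested photoreceptor precursor genes, 6 were higher, led by Neurod4 (2.44), Otx2 (2.37) and Prdm1 (2.35), and Rxrg was lower (-1.08). Their median was 2.104, and they summed to 957, 773 and 778 CPM in iRGCs and 184, 300.1 and 227 CPM in cRGCs, Otx2 being the most abundant.

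The list of bipolar cells, the retinal type in which Irx5 and Irx6 are best known, had 7 tested genes of 10. Of these, 3 were higher in iRGCs and 1 lower (Grik1, -1.38), with a median log2 fold change of 0.17. The genes higher in iRGCs were Trpm1 (3.27), a channel gene of ON bipolar cells with 6.14, 17.8 and 0.694 CPM in the iRGC replicates and 1.23, 1.04 and 0.290 CPM in the cRGC replicates, Lhx4 (2.50) and Otx2 (2.37). The latter pair is also found in photoreceptor precursors. The summed level, with Otx2 the most abundant gene, was 348, 277 and 289 CPM in the iRGC replicates and 72.1, 119 and 73.8 CPM in the cRGC replicates. Vsx1, Grm6 and Scgn had too few counts to be tested. Vsx1 and Grm6, which define bipolar types, were at 0 in each cRGC library and at no more than 1.16 and 0.618 CPM in any iRGC library.

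Endothelial and mural cell genes were higher in iRGCs in 7 of 8 tested cases (median log2 fold change 4.89), with sums of 469, 737 and 453 CPM in iRGCs and 88.8, 111 and 73.7 CPM in cRGCs. Kdr, also known from the neural retina, was the most abundant, and had 366, 320.5 and 418 CPM in the iRGC replicates, while Adgrf5, Rgs5 and Cd34 peaked in iRGC replicate 2 at 50.8, 93.8 and 75.1 CPM. Microglia and erythroid genes were higher in 5 of 8 tested cases (median 3.73), with the globin gene Hbb-bs (4.76) the most abundant, and summed to 24.8, 101 and 25.0 CPM in iRGCs and 0.654, 8.21 and 1.74 CPM in cRGCs. The part of these cells in the Irx values was not tested.

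The 12 other TALE homeobox genes, relatives and partners of Iroquois proteins, did not share one direction. With edgeR at a Benjamini-Hochberg adjusted p-value under 0.1, 3 were lower, 5 higher and 4 not called, and the median log2 fold change was 0.21, where the 6 Irx genes lay between -2.37 and -1.72. Among those lower in iRGCs were Meis3 (-1.29) and Pbx3 (-0.69). Higher were Tgif1 (2.63) and Tgif2 (2.39), which encode corepressors, and Meis2 (1.05), a gene of retinal progenitors and amacrine cells.

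Signals of the hedgehog, BMP and FGF families act on Iroquois genes in several tissues. Of 24 tested genes of these families, 18 were higher in iRGCs, 1 lower and 5 not called, with a median log2 fold change of 2.18. The one lower gene was Shh, the ligand made by RGCs, at 4.70, 6.18 and 13.5 CPM in iRGC replicates 1, 2 and 3 and 29.0, 39.7 and 39.9 CPM in the cRGC replicates. Shh was lowest in iRGC replicate 1, as all Irx genes were, and its libraries did not overlap between the populations (log2 fold change -2.15, SE 0.373). Hhip, a hedgehog antagonist (2.82), Fgf15, a ligand made by retinal progenitors and the most abundant of the list (2.73), and Gli3, a transcription factor of the hedgehog pathway (2.66), led the genes higher in iRGCs.

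Among genes tied to a single Irx factor in other work, 4 of 7 were tested, 2 of them lower, 1 higher and 1 not called, with a median log2 fold change of -0.30. Slit1, an axon guidance ligand gene on which Irx4 acts in the chick, was the most abundant of the list. It measured 62.3, 89.4 and 90.3 CPM in the iRGC replicates and 122.6, 117 and 171 CPM in the cRGC replicates. The populations did not overlap, and the log2 fold change was -0.76 (SE 0.192, edgeR, Benjamini-Hochberg adjusted p = 0.0120), where that of Irx4 was -2.37. Whether Irx4 acts on Slit1 in these cells, and in which direction, was not tested. Kcnd2, the potassium channel gene that Irx5 represses in heart muscle, was lower (-2.18, SE 0.4996). Gja1, a gap junction gene repressed by Irx3 in the heart, was higher (5.86, SE 1.05), but its iRGC libraries ranged from 4.98 to 99.2 CPM with the highest in replicate 2, where Adgrf5, Rgs5 and Cd34 also peaked. Cabp5, a bipolar cell gene, was near 1 CPM in both populations and was not called.

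Regional genes of the retina were split. Of 7 dorsal genes, 6 were higher in iRGCs, among them Aldh1a1 (3.68), Unc5b (2.22) and Tbx3 (1.75). Aldh1a1 (147, 532 and 103 CPM) and Unc5b (24.3, 70.3 and 13.7 CPM) were highest in iRGC replicate 2, as Adgrf5, Rgs5 and Cd34 were. Tbx5 was lower (-1.60), the median was 1.20 and Tbx2 was the most abundant. The level of Tbx5 was 9.10, 14.2 and 5.77 CPM in the iRGC replicates and 10.1, 17.4 and 60.4 CPM in the cRGC replicates. Its libraries overlapped, and cRGC replicate 3 was far above the others. Of 6 ventral genes, Vax2 (-1.07), Ephb3 (-0.71) and Ephb2 (-0.24), the most abundant, were lower, Aldh1a3 (2.79) was higher and 2 were not called, with a median of -0.25. Of 7 nasal and temporal genes, 2 were lower, Epha6 (-1.48) and Efna2 (-0.37), 2 were higher, among them Foxd1 (1.84), and 3 were not called, including Epha5, the most abundant, with a median of 0.13.

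Neighbours outside the clusters moved in both directions. Within 2 Mb outside the chromosome 13 cluster, 6 of 24 tested genes were lower in iRGCs and 5 higher, with a median log2 fold change of -0.07, and around the chromosome 8 cluster 5 of 24 were lower and 5 higher, with a median of -0.13. These counts are near the shares of all tested genes, of which 23.1% were lower and 23.3% higher. Fto, whose introns hold enhancers of Irx3 and which lies 130.1 kb below the chromosome 8 cluster, measured 193, 184 and 230 CPM in the iRGC replicates and 313, 323 and 327 CPM in the cRGC replicates. Its libraries did not overlap, at a log2 fold change of -0.66 (SE 0.112, edgeR, Benjamini-Hochberg adjusted p = 0.00168). On the other side, Mmp2, a matrix protease gene 146 kb from the cluster, had -1.24 (SE 0.293).

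Beside the chromosome 13 cluster, Ndufs6, a respiratory chain gene 50.2 kb away, was not called (-0.11, SE 0.163), and Ice1, a transcription elongation gene 1320 kb below, was lower (-0.69, SE 0.0994). Farther along chromosome 13, the telomerase gene Tert (-0.94), the chromatin gene Brd9 (-0.61), the exocyst gene Exoc3 (-0.52) and the lipid enzyme gene Lpcat1 (-0.25) were lower. The calpain inhibitor gene Cast (1.57), the mitotic checkpoint gene Trip13 (1.53), the peptidase gene Erap1 (1.10), the centrosome gene Cep72 (0.88) and the respiratory chain gene Sdha (0.31) were higher. On chromosome 8, Gnao1 (-1.78), a G protein subunit gene of neurons, and Rspry1 (-0.42) were lower, and the metallothionein gene Mt1 (2.40), Herpud1 (0.61), Ogfod1 (0.58), the nuclear pore gene Nup93 (0.53) and Tox3 (0.53) higher. Capns2, 220 kb from the chromosome 8 cluster and named after its values were seen, showed 0, 0 and 1 reads in the iRGC replicates and 49, 53 and 40 in the cRGC replicates.

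Of 5 tested noncoding genes inside the clusters, 2 were lower in iRGCs and 0 higher. Gm20554, which starts its transcripts 256 bp from Irx2 on the other strand, measured 0, 0.711 and 0.378 CPM in the iRGC replicates and 1.85, 2.48 and 3.42 CPM in the cRGC replicates. The populations did not overlap, and the log2 fold change of -2.82 (SE 1.20, edgeR, Benjamini-Hochberg adjusted p = 0.0965) just passed the threshold. Crnde, 1.51 kb from Irx5 on the other strand, measured 12.4, 13.6 and 12.2 CPM in the iRGC replicates and 18.03, 22.02 and 43.9 CPM in the cRGC replicates. As for Irx5, the libraries did not overlap and cRGC replicate 3 was the highest (log2 fold change -1.13, SE 0.317, edgeR, Benjamini-Hochberg adjusted p = 0.0195). Irx3os, the antisense partner of Irx3, measured 0, 2.41 and 1.89 CPM in iRGCs and 5.81, 4.76 and 7.97 CPM in cRGCs and did not pass (-2.10, SE 1.08, edgeR, Benjamini-Hochberg adjusted p = 0.162). Gm28511 and Gm21817, also inside the chromosome 8 cluster, were not called.

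**Figure D5:**
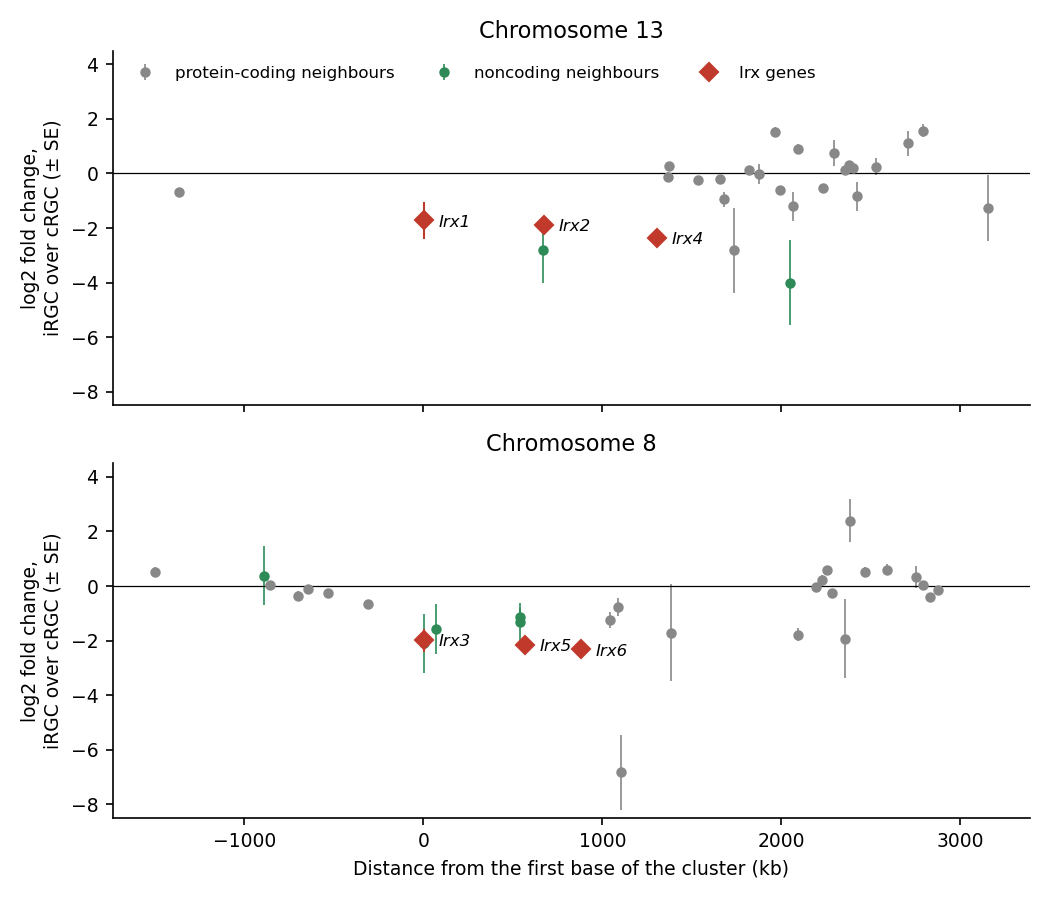
Log2 fold change of iRGCs over cRGCs (± SE) of the tested genes within 2 Mb of each Irx cluster against the distance of the gene's middle from the first base of the cluster (kb), with Irx genes in red, protein-coding neighbours in grey and noncoding ones in green. The Irx genes lie between -2.37 and -1.72, while neighbours outside the clusters scatter around medians of -0.07 (chromosome 13) and -0.13 (chromosome 8).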

How the data were processed

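Each of the 6 RNA-seq libraries had 1 table of counts, which the authors deposited without normalization. Per the submitters' processing notes, reads were aligned to mm10 with HISAT2 2.1.0 and counted on the Ensembl genes of GRCm38 with HTSeq 0.11.1, and the strand setting is not given in the sources used here. Tallies without a gene were left out of all sums and fits. Alignments that overlapped no gene were 8.09% to 16.8% of all tallied alignments. Symbols, positions and exon lengths came from GENCODE M21 for 46574 of 47069 identifiers, and promoters from RefSeq. Protein sequences were not analysed here.

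For the tests, edgeR 4.0.16 under R 4.3.3 was used (filterByExpr, TMM factors from 0.921 to 1.10, quasi-likelihood test, two-sided, no block), at a Benjamini-Hochberg adjusted p-value under 0.1 over 15941 genes. SEs came from the F statistic, and the biological coefficient of variation was 36.3%. Single values within libraries were compared with exact permutation tests. Replicate pairs of a population differed by more than counting noise, with chi-square values of 25.2 to 69.4 per degree of freedom.

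The members and the 13 gene lists were chosen with earlier results of these data known. Named are all members, from each list up to 3 called genes per direction with the largest change and a mean of at least 5 CPM plus the most abundant gene, of the neighbours within 2 Mb those sharing exons with a member, the nearest tested protein-coding ones and called ones of at least 1 CPM, and the 3 most correlated genes per member of at least 10 CPM. Genes named besides these (Slc6a4, Pou4f2, Zic2, Thy1, Cabp5, Grik1, Trpm1, Capns2, Gm28511, Gm21817, genes not tested) were chosen after their values were seen. Some genes that the rule names are not reported here.

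Alternatives were DESeq2 1.42.0, limma 3.58.1 voom, DESeq2 size factors, upper quartile factors, library totals without factors, no filter or at least 10 counts in every library, protein-coding genes alone, an adjusted p-value under 0.05, the replicate number as a block, a log2 fold change above 1, each library left out, and, added after seeing the data, scaling to 13 genes of differentiated ganglion cells. Figures were drawn with matplotlib 3.10.9.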

Additional observations from a re-analysis of the deposited data

How the results depend on the processing

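The log2 fold changes of Irx2 to Irx6 kept their direction and stayed past the threshold under every alternative but the scaling to ganglion cell genes, which was added after seeing the data. Under that scaling they were -0.019 (Irx2), -0.0748 (Irx3), -0.50 (Irx4), -0.28 (Irx5), -0.41 (Irx6) and -0.047 (Irx1), the count of Irx genes lower in iRGCs was 0, and 35 genes were lower and 12564 higher. Irx1 did not pass with DESeq2 (-1.73) either, nor without iRGC replicate 2, cRGC replicate 2 or cRGC replicate 3, and the cause was not tested. When each library was left out, Irx1 ranged from -2.55 to -1.22, Irx2 from -2.07 to -1.64, Irx3 from -2.23 to -1.42, Irx4 from -2.53 to -2.16, Irx5 from -2.37 to -1.89 and Irx6 from -2.42 to -2.23, the count of Irx genes lower from 5 to 6, and the genes lower from 3068 to 4040 and higher from 3148 to 3563. With a log2 fold change above 1 required, 1758 genes were lower and 1930.0 higher. With library totals in place of TMM, 2842 genes were lower and 5100.0 higher, against 3688 and 3707, the median of all genes moved from 0.00 to 0.20, and 6 of 6 Irx genes remained lower, Irx4 at -2.17. The difference in the chromosome 8 share was -1.75 percentage points, from -3.34 to 0.52 with single libraries left out and 2.11 without Irx2. That of the Irx sum relative to ganglion cell genes lay from -0.33 to -0.13 with single libraries left out.

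With the replicate number as a block, 6 of 6 Irx genes were lower (Irx1 at -2.13, Irx4 at -2.41), and 3435 genes were lower and 3316 higher. Same-numbered libraries did not deviate together, with correlations of -0.012, -0.024 and -0.055, so the numbers are not taken as a pairing.

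Gm20554 rests on few reads, with 0, 23 and 12 in the iRGC replicates, which limits the precision of its fold change.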
